A study of Mus musculus with 6 samples.

Results

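The Nodal and Activin pathway was followed through 10 genes, namely the ligand Nodal, its co-receptor Tdgf1, the receptors Acvr1b and Acvr2b, the effectors Smad2 and Smad3, the nuclear partner Foxh1, and the inhibitors Lefty1, Lefty2 and Smad7. The members were chosen by name, with earlier results of these data known. Their rows of the count table were found through the gene names of the mouse GENCODE annotation. All 10 were found among the 55416 rows, and all 10 were among the 15746 genes with enough counts to be tested. Tdgf1 is listed in that annotation under its other name, Cripto.

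Nodal and Activins are secreted ligands of the TGF-β family that bind pairs of type I and type II receptor kinases, and Nodal also needs an EGF-CFC co-receptor such as the Tdgf1 product. The receptors phosphorylate SMAD2 and SMAD3, which join SMAD4 and act on DNA with partners such as FOXH1. Nodal and its Lefty antagonists are themselves targets of the pathway, so that the ligand and its inhibitors are usually switched on by the same signal, and the pathway is known for its role in the epiblast and in mesendoderm formation.

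The libraries came from 46C mouse embryonic stem cells (mESCs), either wild type (WT) or carrying an Oct6 knockout (KO), and all of them had been differentiated to epiblast-like cells (EpiLCs) for 48 h. Oct6, or Pou3f1, encodes a POU-family transcription factor, and the comparison asks how EpiLCs form without it. The KO cells were 1 clone, made with CRISPR/Cas9, with 1 inserted base on both alleles, so that features of the clone and of the mutation cannot be told apart. Each group had 3 libraries of total RNA, and the series describes the replicates as paired. Every culture, WT and KO, received Activin A, at 20 ng/ml in the sample labels, along with bFGF at 12 ng/ml and 1% KSR, while the series' design text writes both factors in µg/ml. The receptors of all 6 cultures were therefore exposed to an added ligand of this pathway, and no culture without it was part of the comparison.

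Total counts ranged from 10995505 to 14680930 per library. Levels are given below as CPM, the counts scaled to a common library size with TMM normalization, when 1 gene is compared across libraries, and as TPM, which also divides by exon length, when genes are compared with each other. A gene was called DE where edgeR's quasi-likelihood test gave an adjusted p (Benjamini-Hochberg over all genes tested) under 0.1. Pou3f1 RNA was not lower beyond the error in the KO libraries (log2 fold change of KO over WT -0.10, SE 0.11, adjusted p = 0.57), which is no check of the labels, since an insertion of this kind need not remove the RNA. All 7 epiblast markers examined were expressed, with a summed level of 2726 to 3029 CPM in WT and 2678 to 2816 CPM in KO and with Sox2, Fgf5 and Otx2 higher in KO, and the 6 markers of mesoderm and primitive streak were too low to be tested. Markers of endoderm summed to 8.76 to 13.4 CPM in WT and 14.2 to 37.0 CPM in KO, with Gata6 and Cubn higher in KO among the 4 of 7 that could be tested, while Gata4, Sox7 and Foxa2 were too low. Those of trophoblast summed to 170 to 186 CPM in WT and 110 to 135 CPM in KO, with Krt8 and Krt18 lower and Eomes higher, and with Cdx2, Elf5 and Gata3 too low to be tested. Most of that sum was Krt8 (77.5 to 93.2 CPM in WT) and Krt18 (85.6 to 94.7 CPM in WT), whereas Cdx2, Elf5 and Gata3 reached at most 0.522 CPM. Markers of fibroblasts summed to 8.12 to 17.4 CPM in WT and 5.72 to 11.3 CPM in KO, with none of the 2 tested called. The part of these other cell types in the results below was not tested, and in bulk RNA fewer cells of a type and less RNA per cell cannot be told apart.

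In KO EpiLCs, RNA of both secreted antagonists, Lefty1 and Lefty2, was lower, as was that of the type I receptor Acvr1b and of Foxh1, while RNA of the co-receptor Tdgf1 was higher. Nodal, Smad2, Smad3, Smad7 and Acvr2b were not called. Thus 5 of the 10 members were DE, beside 24.3% of all genes tested, with 1 higher (11.8% of all genes tested) and 4 lower (12.5%). The same 5 members, and no others, had CPM that did not overlap between the groups, which was so for 33.7% of all genes tested. The median log2 fold change over the 10 members was -0.19, within a range of -0.67 to 0.40, and over all genes tested it was 0.0014. No member changed by as much as 1 on the log2 scale, as 6.21% of all genes tested did with a call.

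**Figure D1:**
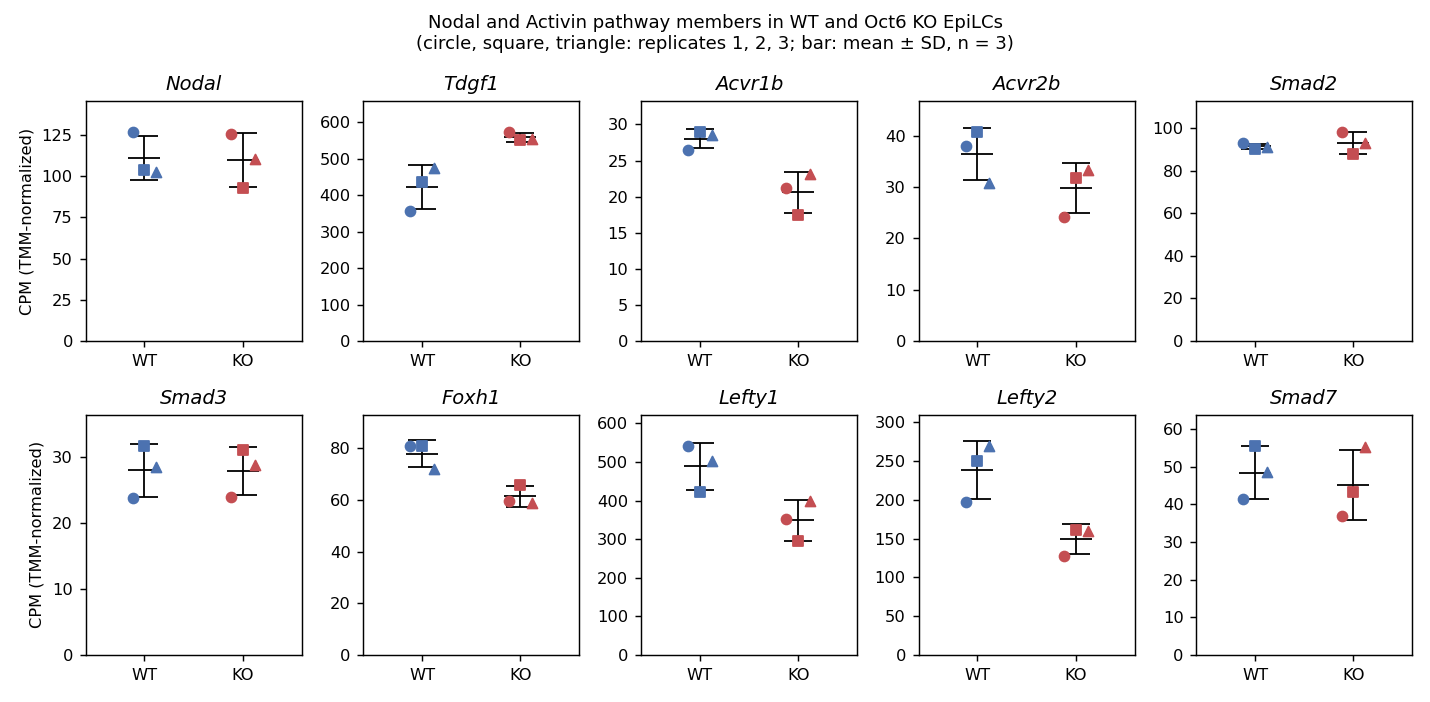
Level of each member in CPM (vertical axes, linear, from 0) in the 3 WT and 3 KO libraries; the points are libraries, the marker shape is the replicate number, and the bars are the mean ± SD. The KO points lie all above WT for Tdgf1 and all below WT for Acvr1b, Foxh1, Lefty1 and Lefty2, whereas the groups overlap for the other 5.

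Nodal, the endogenous ligand, gave 127, 104 and 102 CPM in the WT libraries, listed here and below in the order of their replicate numbers, and 126, 92.7 and 110 CPM in the KO libraries. The groups overlapped throughout, and replicate 1 was the highest library in both. The mean was 111 ± 13.6 CPM in WT and 109 ± 16.4 CPM in KO (SD, n = 3), a log2 fold change of -0.02 (95% interval -0.27 to 0.23, adjusted p = 0.94). Each library held between 1137 and 1696 counts of Nodal. Changes within that interval could not be told apart from no change at this depth and number of libraries. Nodal lies on chromosome 10 (GRCm39, chr10:61253587-61261117, plus strand).

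FOXH1 is known to act on Nodal through its first intron, so the letters AATCCACA, a FOXH1-binding sequence, were searched on both strands from 5000 bases before each gene to 5000 bases after it. Nodal held 2 matches, both in intron 1, at 1327 and 2121 bases from the start of transcription. They are shown with 10 bases on each side, 5′ to 3′ on the strand of the match, with the matched letters in capitals.

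Nodal intron 1, chr10:61255078-61255085, plus strand: acccggacgcAATCCACAtcttctaatc

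Nodal intron 1, chr10:61255872-61255879, plus strand: attcttgtcaAATCCACAcggtgggggc

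This corresponds to 0.114 matches per kb over Nodal and its surroundings, a density above that of 94.1% of 21770 genes searched the same way, for which the median was 0.0396 per kb. A match describes the letters only, and no binding was measured in these libraries.

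Among the other ligands, Gdf3, a Nodal-related factor of the early embryo, was the most abundant, with 213 ± 26.4 TPM in WT and 182 ± 7.67 TPM in KO against 176 ± 26.7 and 172 ± 36.4 TPM for Nodal (SD, n = 3). Its log2 fold change was -0.20 (SE 0.10, adjusted p = 0.18). Inhbb, which encodes the subunit of Activin B, was the only ligand gene called, from 0.149, 0.183 and 0.609 CPM in WT to 1.13, 1.16 and 1.43 CPM in KO. It was higher in all 3 KO libraries, yet the counts were only 2 to 9 in WT and 14 to 19 in KO, and the log2 fold change of 1.89 (SE 0.54, adjusted p = 0.018) became 2.84 without WT replicate 3. Inhbb passed the filter on low counts only through its KO libraries, the group where it was high, so its call is no independent result. It was not tested where at least 10 counts were required in every library. Of the 7 ligand genes examined, 4 were tested, with 1 higher (Inhbb) and 3 not called, where 24.3% of all genes tested were called. The highest count of any untested ligand gene was 10.

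Nodal is made as a precursor that is cleaved by proprotein convertases, and the 2 convertases examined moved in opposite directions. Pcsk6, also called PACE4, was measured at 18.2, 22.2 and 21.2 CPM in WT and at 32.6, 34.6 and 47.8 CPM in KO. Every KO library lay above every WT library, and the log2 fold change was 0.90 (SE 0.15, adjusted p = 2.3e-04). Furin, in contrast, gave 8.51, 6.84 and 6.49 CPM in WT and 4.29, 5.48 and 4.89 CPM in KO, with a log2 fold change of -0.57 (SE 0.21, adjusted p = 0.066). The Furin call was lost when WT replicate 1 (adjusted p = 0.22), KO replicate 1 (0.20) or KO replicate 3 (0.14) was left out, and with DESeq2 (0.13).

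Tdgf1 encodes the co-receptor that lets Nodal engage the Activin receptors, and it was the only member that rose. It was measured at 357, 436 and 475 CPM in WT and at 573, 551 and 553 CPM in KO. The KO libraries were close to each other and all above WT, where replicate 1 was the lowest. The log2 fold change was 0.40 (SE 0.11, adjusted p = 0.010), and the same-numbered libraries differed by 0.68, 0.34 and 0.22 on the log2 scale for pairs 1 to 3. A processed pseudogene on chromosome 16, Tdgf1-ps1, had 357 to 493 counts in WT and 470 to 539 in KO, against 4775 to 7017 and 7068 to 7350 for Tdgf1. Only 4.49% of the 100-base windows of the Tdgf1 transcript were identical to a stretch of that pseudogene, and how reads were split between the gene and its pseudogene was not tested. The other EGF-CFC gene, Cfc1, had at most 4 counts in any library.

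The type I receptor gene Acvr1b fell, from 26.5, 28.9 and 28.5 CPM in WT to 21.1, 17.5 and 23.2 CPM in KO. The groups did not overlap, with KO replicate 2 the lowest of all. The log2 fold change was -0.44 (SE 0.13, adjusted p = 0.026), and the call was lost without KO replicate 2, where the value was -0.34 and the adjusted p was 0.15. It lies on chromosome 15 (chr15:101071921-101111565, plus strand).

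The type II receptor gene Acvr2b gave 37.9, 40.7 and 30.7 CPM in WT and 24.2, 31.9 and 33.3 CPM in KO. WT replicate 3 lay below 2 of the 3 KO libraries, and pair 3 differed by 0.12 on the log2 scale whereas pairs 1 and 2 differed by -0.64 and -0.35. The log2 fold change was -0.29 (95% interval -0.58 to 0.01), which was not called (adjusted p = 0.18). It was called in the fit with the replicate pairs as a block (-0.29, adjusted p = 0.095) and without WT replicate 3 (-0.40, adjusted p = 0.069). The call thus depended on the use of the pairs and on that library.

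Tgfbr1, the type I receptor of TGF-β itself, moved the other way from Acvr1b. It was measured at 60.2, 50.2 and 71.0 CPM in WT and at 96.6, 86.9 and 73.3 CPM in KO. The groups did not overlap, but KO replicate 3 was close to WT replicate 3, and the log2 fold change was 0.50 (SE 0.13, adjusted p = 0.0091). Per exon length Tgfbr1 was the most abundant receptor gene of the list in both groups, with 31.9 ± 7.38 TPM in WT and 44.2 ± 6.89 TPM in KO, compared with 20.5 ± 1.29 and 14.9 ± 3.0 TPM for Acvr1b. Of the 6 receptor genes, 5 were tested, with 1 higher, 1 lower and 3 not called, where 24.3% of all genes tested were called.

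**Figure D2:**
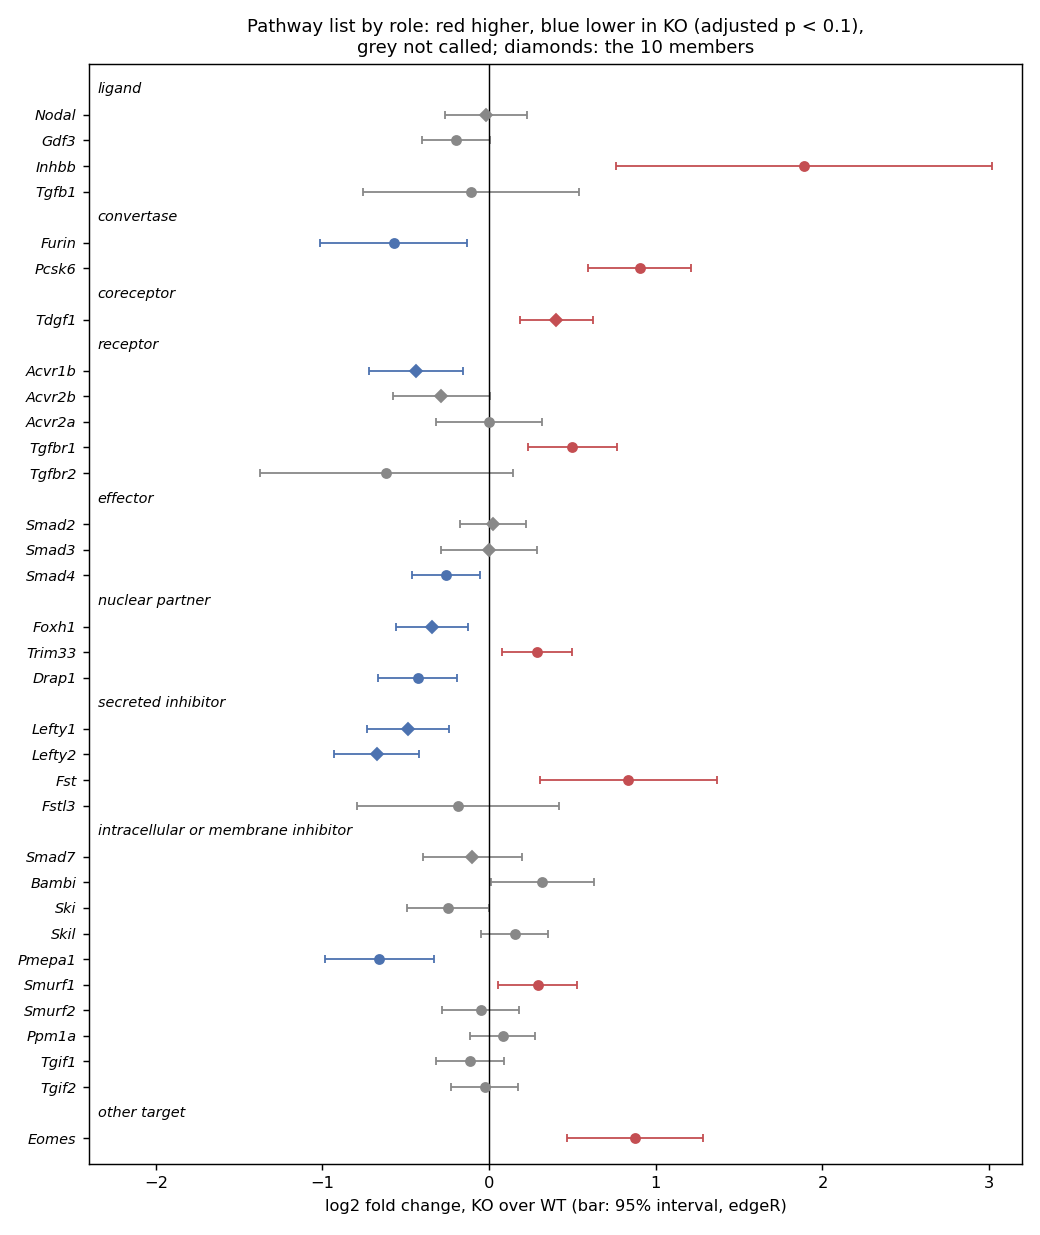
Log2 fold change of KO over WT (horizontal axis) with its 95% interval for 33 of the 34 tested genes of the pathway list, grouped by role; diamonds are the 10 members, red marks genes called higher in KO, blue those called lower and grey those not called. The 8 higher and 8 lower genes drawn are spread over the roles, and 17 intervals belong to genes that were not called.

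The effector genes Smad2 and Smad3 were measured at almost the same level in both groups. Smad2 gave 92.8, 90.3 and 91.3 CPM in WT and 98.1, 87.6 and 93.0 CPM in KO, with a log2 fold change of 0.02 (95% interval -0.18 to 0.22, adjusted p = 0.91). Smad3 gave 23.7, 31.7 and 28.5 CPM in WT and 23.9, 31.0 and 28.7 CPM in KO, with a 95% interval of -0.29 to 0.29 around a log2 fold change of -0.00096. For both genes the groups overlapped, and for Smad3 the libraries with the same replicate number were nearly alike, with pair differences between -0.03 and 0.01 on the log2 scale. RNA levels do not show phosphorylation of the proteins, through which the receptors act.

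SMAD2 and SMAD3 share the same role downstream of the receptors, so the share of Smad3 in the summed TPM of both was compared. It was 33.2%, 40.5% and 37.7% in WT and 32.1%, 40.7% and 37.5% in KO. The order of the replicates was the same in both groups, and the difference of the means, -0.347 percentage points, was smaller than the SDs of 3.70 and 4.35 (exact two-sided permutation test, p = 0.9, where 0.1 is the smallest that 3 against 3 can give). The share itself depends on the length assigned to Smad2: over canonical transcripts it was 8.68% ± 1.24 in WT and 8.57% ± 1.45 in KO (SD, n = 3). Smad4, which joins both, fell slightly, from 86.7, 83.5 and 88.1 CPM in WT to 68.1, 77.7 and 70.1 CPM in KO (log2 fold change -0.26, SE 0.10, adjusted p = 0.076). All 3 KO libraries lay below WT, but the Smad4 call was lost on leaving out WT replicate 1 (adjusted p = 0.14), WT replicate 3 (0.14), KO replicate 1 (0.23) or KO replicate 3 (0.19), and with no filter on low counts (0.13).

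Foxh1 encodes the forkhead factor that recruits SMAD2 and SMAD3 to many targets of the pathway. Its RNA fell from 80.8, 80.8 and 71.8 CPM in WT to 59.4, 65.9 and 58.7 CPM in KO. No KO library reached the lowest WT library, and the log2 fold change was -0.34 (SE 0.10, adjusted p = 0.024). The gene, on chromosome 15 (chr15:76552028-76554148, minus strand), overlaps Kifc2 and Ppp1r16a on the opposite strand. Kifc2 had 27 to 34 counts in WT and 9 to 19 in KO, so it was lower in KO, as Foxh1 was. Ppp1r16a had 331 to 407 counts in WT and 368 to 402 in KO, against 733 to 1083 per library for Foxh1. The library kit keeps the strand, but whether the counting used it is not given in the sources used here, so that reads within the overlap may belong to either strand.

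The other nuclear partners examined were also called, as were 24.3% of all genes tested. Drap1, a co-repressor that binds FOXH1, fell from 49.6, 60.7 and 53.0 CPM in WT to 37.6, 43.0 and 40.5 CPM in KO (log2 fold change -0.43, SE 0.11, adjusted p = 0.011). It overlaps AI837181 on the opposite strand, which had 258 to 306 counts in WT and 154 to 249 in KO. Trim33, a ubiquitin ligase that binds SMAD2 and SMAD3, rose from 164, 166 and 200 CPM to 209, 218 and 222 CPM (log2 fold change 0.29, SE 0.10, adjusted p = 0.053). The Trim33 call was lost without WT replicate 1 (adjusted p = 0.20), WT replicate 2 (0.16), KO replicate 2 (0.13) or KO replicate 3 (0.15).

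Lefty1 and Lefty2 encode secreted antagonists that bind Nodal and its co-receptor and that are switched on by the pathway they inhibit. Lefty1 gave 542, 423 and 502 CPM in WT and 353, 294 and 400 CPM in KO, and Lefty2 gave 197, 250 and 269 CPM in WT and 127, 161 and 160 CPM in KO. For both genes every KO library lay below every WT library, and all 3 pairs differed in that direction. The log2 fold change was -0.48 for Lefty1 (SE 0.12, adjusted p = 0.0062) and -0.67 for Lefty2 (SE 0.12, adjusted p = 5.7e-04), which corresponds to RNA lower by 28.5% and 37.3%. In TPM, without TMM normalization, the lowest WT library for Lefty1 (772 TPM) lay below the highest KO library (806 TPM), whereas the Lefty2 groups stayed apart.

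**Figure D3:**
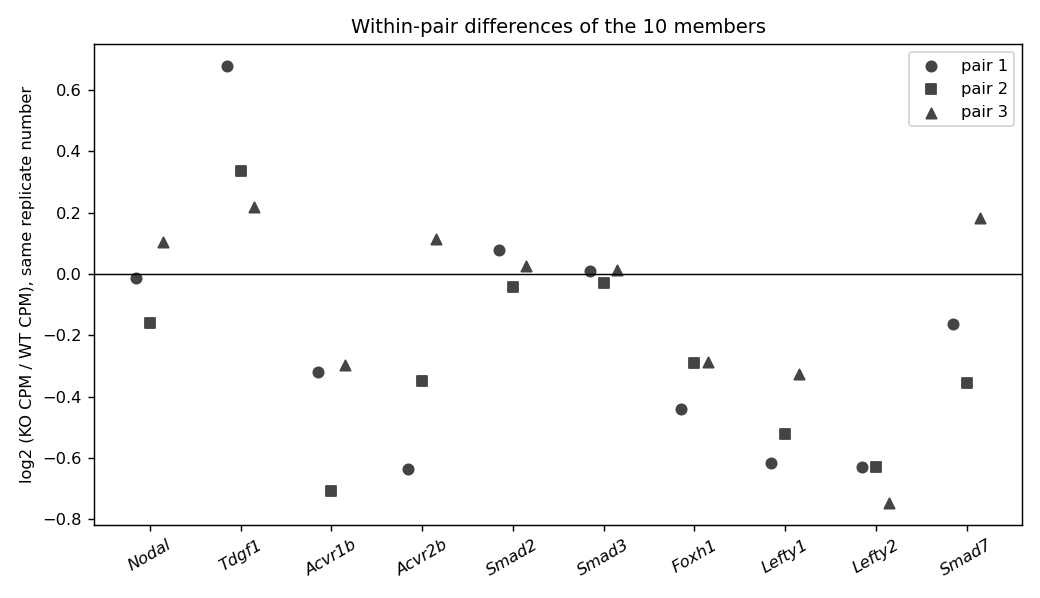
Log2 ratio of KO to WT CPM for libraries with the same replicate number (vertical axis; 0.5 CPM added to both values), with 1 point for each of the 3 pairs and each member. All 3 points lie above 0 for Tdgf1 and below 0 for Acvr1b, Foxh1, Lefty1 and Lefty2, while those of Nodal, Acvr2b, Smad2, Smad3 and Smad7 fall on both sides.

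The Lefty genes are neighbours on chromosome 1, both on the plus strand, with Lefty2 at chr1:180720635-180726932 and Lefty1 at chr1:180762587-180765971, and 35654 bases lie between them. Their coding sequences were 91.8% identical (1014 of 1104 aligned bases), and 4.78% of the 100-base windows of Lefty1 were also found in Lefty2, so a small part of the reads may not tell the genes apart. Lefty1 made up 82.0%, 73.6% and 75.5% of the summed TPM of both genes in WT and 82.1%, 75.1% and 80.5% in KO. The shares overlapped, with means of 77.0% ± 4.38 in WT and 79.2% ± 3.67 in KO (SD, n = 3; exact two-sided permutation test of the difference, p = 0.7, where 0.1 is the smallest possible). Within the pairs the KO share was higher in all 3, by 0.152, 1.46 and 5.02 percentage points (exact two-sided sign-flip permutation test, p = 0.25, the smallest that 3 pairs can give).

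**Figure D4:**
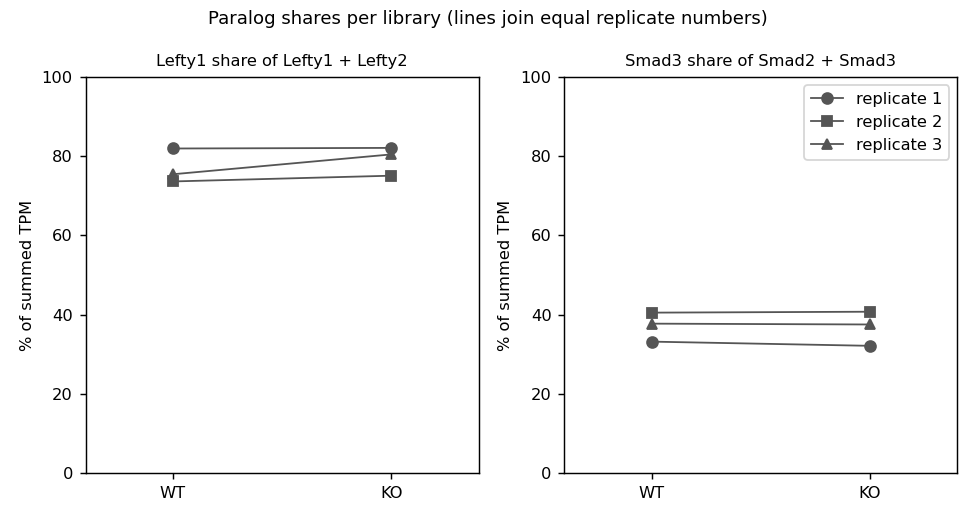
Share of Lefty1 in the summed TPM of Lefty1 and Lefty2 (left) and of Smad3 in that of Smad2 and Smad3 (right), in percent from 0 to 100, with lines joining WT and KO libraries of equal replicate number. The Lefty1 share lies between 73.6% and 82.1% and the Smad3 share between 32.1% and 40.7%, with both groups overlapping.

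Since the neighbouring Lefty genes moved together, the 250 bases before each start of transcription are shown, 5′ to 3′ on the plus strand of GRCm39, with each copy of CAGAC, the core of the SMAD-binding element, in capitals.

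Lefty2, chr1:180720385-180720634: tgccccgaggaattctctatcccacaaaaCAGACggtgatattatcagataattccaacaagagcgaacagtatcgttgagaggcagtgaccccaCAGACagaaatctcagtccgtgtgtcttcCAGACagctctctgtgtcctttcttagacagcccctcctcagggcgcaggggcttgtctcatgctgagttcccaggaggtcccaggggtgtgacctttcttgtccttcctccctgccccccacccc

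Lefty1, chr1:180762337-180762586: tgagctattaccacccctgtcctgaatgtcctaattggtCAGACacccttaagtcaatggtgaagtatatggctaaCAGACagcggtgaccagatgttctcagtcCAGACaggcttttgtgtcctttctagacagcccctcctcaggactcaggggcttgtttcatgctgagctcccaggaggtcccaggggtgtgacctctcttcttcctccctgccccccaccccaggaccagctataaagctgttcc

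Both windows held 3 copies of CAGAC, and at least 1 copy on either strand was present in 41.3% of 21770 promoter windows of the same length. The share of windows with 3 copies was not counted, so that value does not show how common 3 copies are. The windows aligned over 128 columns, of which 115 (89.8%) were identical, and the aligned stretch reached the last base of the Lefty2 window. The Lefty2 window also overlapped an exon of an antisense long noncoding RNA, Gm57186. Among the other members' windows, CAGAC or its complement GTCTG was found in 2 copies at Foxh1, in 1 copy at Smad3, Tdgf1 and Acvr2b, and in none at Nodal, Acvr1b, Smad2 and Smad7.

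Neither AATCCACA (0.694% of the 21770 windows) nor the octamer ATGCAAAT, a sequence bound by POU-family factors (1.49%), was found in the 250-base window of any member. Windows and distances were taken from the start of the canonical transcript. Part of the Nodal window lies inside the annotated gene. The annotated Smad2 gene starts upstream of its canonical transcript, just after the octamer at -463 given below. In the wider surroundings, Lefty2 had 2 copies of AATCCACA upstream of the gene, and Lefty1 had none. Upstream octamers were found at 5 members, called and not called: 1 each at Lefty2 (position -1267 from the start of transcription), Lefty1 (-1013), Tdgf1 (-1775) and Foxh1 (-3915), and 2 at Smad2 (-2054 and -463, the latter the nearest to a start). Those of the Lefty genes and of Tdgf1, the members with the largest falls and the only rise, are shown with the Lefty2 copies of AATCCACA as above, on the strand of the match, with the matched letters in capitals.

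Lefty2 FOXH1 letters, chr1:180716458-180716465, plus strand: aaagtttcctAATCCACAtctgcttcct

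Lefty2 FOXH1 letters, chr1:180716541-180716548, plus strand: ggctcctgggAATCCACAtccaggagtc

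Lefty2 octamer, chr1:180719368-180719375, plus strand: tagggggcagATGCAAATatctgtatcg

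Lefty1 octamer, chr1:180761574-180761581, plus strand: tactggtgtaATGCAAATcccaggtaaa

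Tdgf1 octamer, chr9:110777060-110777067, minus strand: acagcgaaacATGCAAATccaaacaacc

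Per kb, AATCCACA was densest around Foxh1 itself, above 98.2% of genes, followed by Lefty2 (95.1%), Nodal (94.1%), Smad2 (82.0%), Smad3 (76.6%), Acvr2b (50.4%) and Smad7 (37.2%), and none was found around Lefty1, Tdgf1 and Acvr1b. The densities rest on few matches and depend on the length searched. Foxh1 held 2 matches in 12121 bases, including a match in its exon 3, whereas Smad3 held 8 in 121428 bases. Octamers were densest around Lefty1 (2 matches in 13385 bases), above 92.5% of genes, and then around Smad2 (87.3%) and Foxh1 (70.0%), while Lefty2, Acvr1b, Tdgf1, Smad7, Smad3 and Acvr2b lay between 54.6% and 26.2% and Nodal had none. High densities were thus found both at members that were called and at Smad2, which was not. Matches of the searched letters did not overlap each other in any member. These counts describe letters in the reference genome, and no factor was mapped in these libraries.

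Fst, or follistatin, which traps Activin outside the cell, moved against the Lefty genes. It was measured at 3.81, 3.83 and 3.99 CPM in WT and at 9.07, 7.33 and 4.44 CPM in KO. All KO libraries lay above WT, with KO replicate 3 just above, and the log2 fold change was 0.84 (SE 0.25, adjusted p = 0.025). Without KO replicate 1 it was 0.60 and no longer called (adjusted p = 0.17). Of the 6 secreted inhibitors examined, 4 were tested, with 1 higher, 2 lower and 1 not called. Of all genes tested, 11.8% were called higher and 12.5% lower.

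Smad7, the inhibitory SMAD that acts at the receptors and is also induced by the pathway, gave 41.3, 55.5 and 48.5 CPM in WT and 36.8, 43.3 and 55.1 CPM in KO. The groups overlapped widely, and KO replicate 3 was above 2 of the 3 WT libraries. The log2 fold change was -0.10 (95% interval -0.40 to 0.19, adjusted p = 0.69).

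Of the 10 inhibitors that act inside the cell or at its membrane, all were tested, 1 was higher, 1 was lower and 8 were not called, so that 20% were called, near the 24.3% of all genes tested. Pmepa1, a membrane protein induced by TGF-β signals that binds SMAD2 and SMAD3, fell from 19.0, 17.3 and 22.0 CPM in WT to 11.8, 11 and 14.1 CPM in KO. The groups did not overlap and the 3 pairs differed by -0.66, -0.63 and -0.62, with a log2 fold change of -0.66 (SE 0.16, adjusted p = 0.0053). Smurf1, a ubiquitin ligase acting on SMADs and receptors, was called higher with a log2 fold change of 0.29 (SE 0.11, adjusted p = 0.083), but the call was lost under 9 of 13 alternatives, including the removal of any library other than KO replicate 1 (adjusted p of 0.11 to 0.31). The most abundant inhibitor of this role per exon length was Skil, a co-repressor of SMADs, with 183 ± 23.1 TPM in WT and 201 ± 22.1 TPM in KO (log2 fold change 0.15, SE 0.10, adjusted p = 0.31). With the replicate block, Bambi, a receptor-like membrane inhibitor, was also called higher (0.32, adjusted p = 0.077), against an adjusted p of 0.15 without it.

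Among other known targets, Eomes, a T-box gene of early mesendoderm and of trophoblast, rose from 5.82, 5.38 and 5.07 CPM in WT to 10.3, 8.25 and 11.3 CPM in KO (log2 fold change 0.87, SE 0.20, adjusted p = 0.0034). The groups did not overlap. The summed CPM of the endoderm markers, given above, was higher in every KO library than in any WT library, as that of Eomes was, and their part in this was not tested. Cubn was the largest marker in that sum in every library, with 7.16, 3.19 and 3.72 CPM in WT and 21.9, 9.41 and 22.5 CPM in KO. Gata6 was also called higher, whereas Dab2 and Sox17 were not called and overlapped between the groups. Dab2 was lowest in KO replicate 2, at 1.54 CPM. The targets Gsc, Mixl1, Foxa2 and T had at most 13 counts in any library and were not tested.

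Over the whole list of 45 pathway genes, of which the 10 members are part, 34 were tested, with 8 higher, 9 lower and 17 not called. The higher genes included Inhbb, which passed the filter on low counts only through its KO libraries. The share called was 50% of those tested, beside 24.3% of all genes tested (11.8% higher and 12.5% lower). The list was drawn up with earlier results of these data known, so its share called is no independent comparison with all genes. The median log2 fold change was -0.08, against 0.0014 over all genes tested. Leaving aside the members, 24 of 35 genes were tested, with 7 higher and 5 lower, again 50% called against those same shares of all genes, and the median was -0.04.

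Compared per exon length, the members covered a wide range of levels. In WT EpiLCs the order from the highest was Lefty1 with 967 ± 171 TPM, Tdgf1 with 318 ± 51.6 TPM, Lefty2 with 285 ± 49.5 TPM, Nodal with 176 ± 26.7 TPM and Foxh1 with 144 ± 8.0 TPM (SD, n = 3). Smad7 followed with 35.3 ± 3.82 TPM, then Smad2 with 28.3 ± 2.09, Acvr1b with 20.5 ± 1.29, Smad3 with 16.7 ± 1.87 and Acvr2b with 11.3 ± 1.08 TPM. The libraries of neighbours in this order overlapped for Tdgf1 and Lefty2 and for Nodal and Foxh1, and were apart for the other neighbours.

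In KO EpiLCs, Lefty1 was still the highest with 682 ± 144 TPM, and Tdgf1 followed with 414 ± 35.5 TPM, now apart from Lefty2, which at 175 ± 20.0 TPM overlapped with Nodal at 172 ± 36.4 TPM. Foxh1 was next with 112 ± 1.43 TPM, apart from Nodal. Smad7 (32.5 ± 7.59 TPM) overlapped with Smad2 (28.3 ± 3.47 TPM), and Smad3 (16.4 ± 1.49 TPM) overlapped with Acvr1b (14.9 ± 3.0 TPM), with Acvr2b the lowest at 9.09 ± 1.43 TPM. Averaged over all 6 libraries, Lefty1 was above 99.0% of the genes tested and Acvr2b above 46.8%. These levels depend on the length assigned to each gene. With the length of the canonical transcript in place of all exons, Smad2 averaged 117 TPM and would stand above Nodal with 110 TPM. Tdgf1 then averaged 507 TPM over all 6 libraries, against 540 TPM for Lefty1. In the KO libraries Tdgf1 would then stand above Lefty1, so the first rank of Lefty1 in KO holds only for the summed exon length.

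**Figure D5:**
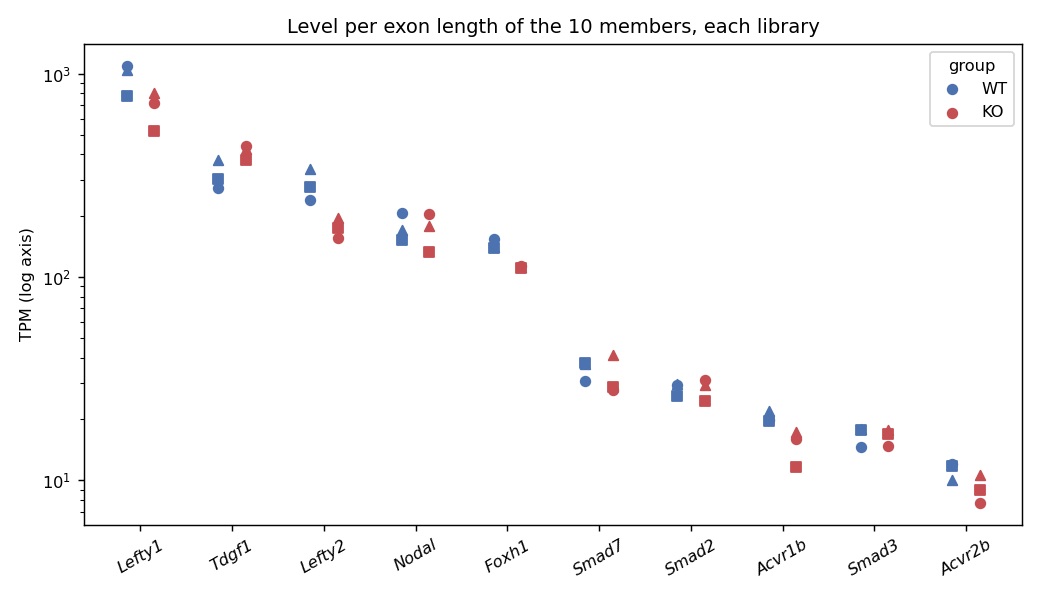
TPM of the 10 members (vertical axis, log scale), ordered by their WT mean, in each WT and KO library; the marker shape is the replicate number, as circle, square and triangle for 1, 2 and 3. The ligand, the co-receptor, the Lefty genes and Foxh1 lie above 100 TPM in every library, and the receptors and SMAD genes lie below 50 TPM.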

How the data were processed

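Total RNA of 3 WT and 3 Oct6 KO EpiLC cultures was sequenced with a stranded kit. Per the labels and the study's methods, the authors trimmed the reads, aligned them to GRCm39 with STAR and deposited raw counts per gene for each library, without normalization; the annotation release and whether counting used strand are not given in the sources used here. Gene names, exons and sequences were taken from GENCODE M39 on GRCm39, where 54749 of 55416 identifiers were found; Tdgf1 was matched by its synonym.

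Counts were tested with edgeR 4.0.16 in R 4.3.3 (TMM, filterByExpr with a minimum count of 10, quasi-likelihood test, genotype only), with Benjamini-Hochberg adjustment over 15746 genes and a threshold of 0.1, the study's false discovery rate. The study used DESeq2 and counted DE genes with a log2 fold change of at least 1. That cutoff was not part of the calls here, and no member reached it. Standard errors were derived from the F statistic. TPM used the summed exon length. Scripts were tested on simulated counts. DESeq2 1.42.0, other normalizations and filters, a stricter threshold, a replicate block and the removal of each library were the alternatives; after seeing the data, TPM and shares over the canonical transcript and a paired test of the shares were added. The members and lists were chosen with earlier results of these data known. All members, Pou3f1, called genes of the list and the most abundant gene of each role were named, except for 1 gene of the list that is counted but not reported here.

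The series calls the replicates paired, and deviations from the group means of same-numbered libraries correlated over 13078 genes (0.257, 0.298 and 0.122, against -0.233 to -0.0379 for different numbers). Since each group was centred on its own mean, positive values for equal numbers force negative ones for different numbers on balance. The contrast between them is thus partly built in. Replicate numbers were taken as pairs for the within-pair differences, the sign-flip tests and the replicate block. The main fit, which made the calls, did not use the pairs. Replicate libraries differed beyond sampling noise (chi-square per degree of freedom 6.94 to 11.8). P-values measure the spread between cultures of 1 KO clone and its parental line.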

Additional observations from a re-analysis of the deposited data

How the results depend on the processing

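Lefty1, Lefty2, Foxh1 and Tdgf1 kept their direction and call under all 13 alternatives, and Acvr1b under 12. The members called numbered 4 to 6 on leaving out 1 library, 6 with the replicate block and 5 otherwise. Over the list, 13 to 19 genes were called, and over all genes 2989 (adjusted p under 0.05) to 4764 (replicate block, 3833 without it). In the paired tests of the shares, where the differences stayed at 2.21 percentage points for Lefty1 (p = 0.25, exact) and -0.347 for Smad3 (p = 0.75, exact), 0.25 is the smallest p possible. The replicate block lost no call of the list and added those of Acvr2b and Bambi. Directions that turned belonged to values near 0 that were not called. On leaving out 1 library at a time, the log2 fold change ranged from -0.131 to 0.0878 for Nodal, from -0.0212 to 0.0623 for Smad2, from -0.108 to 0.0957 for Smad3, from -0.271 to 0.0238 for Smad7, from -0.292 to 0.180 for Tgfb1, from -0.154 to 0.0930 for Acvr2a, from -0.151 to 0.0353 for Smurf2 and from -0.0716 to 0.0022 for Tgif2, and the difference in the Smad3 share ranged from -2.32 to 1.99 percentage points. Smad2 was at -0.0021 with library totals alone, and Acvr2a at 0.0054 with the replicate block. The cause was not tested. Tgfbr2 was called only without KO replicate 3 (-1.09, adjusted p = 0.084) and Ski only without WT replicate 2 (-0.34, adjusted p = 0.076). With 3 libraries a group, the median SE over all genes tested was 0.157 on the log2 scale, and changes of that size could not be resolved for a typical gene.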
